A study of Mus musculus with 12 samples.

Results

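Immediate early genes were examined in right atrial RNA of mice as the 10 genes Nr4a1, Nr4a2, Nr4a3, Fos, Fosb, Jun, Junb, Egr1, Atf3 and Dusp1, taken by symbol from a table of 40690 genes. Each symbol matched 1 gene. The 12 RNA sequencing libraries fell into 6 labelled control and 6 labelled iNICD, the genotype in which, going by the series title, the Notch pathway was transiently activated. All mice, littermate controls included, ate doxycycline chow for 3 weeks from 2 to 3 months of age, and the atria were collected while the drug was still being given. The promoter or cell type that drives the iNICD allele is not given in the sources used here, and neither are strain and sex. The labels speak of 6 different atrial samples per group without saying that each is 1 animal, so p-values measure the spread between these samples.

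Immediate early genes are transcribed within minutes of a stimulus, from factors already present in the cell and without new protein synthesis. Signals carried by MAP kinases, calcium and cyclic AMP reach their promoters mainly through SRF with its ternary complex partners, and through CREB bound to cyclic AMP response elements. Most of their products are transcription factors, among them the AP-1 proteins of the Fos and Jun families, the zinc finger protein EGR1 and the orphan nuclear receptors of the NR4A family. Others, such as the MAP kinase phosphatase DUSP1, switch the signal off again. In the heart they are known to respond to stretch, adrenergic drive and ischemia, and in any tissue also to handling and dissection.

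The library totals behind the CPM were 12015650 to 22716190 reads, and 12007384 to 22700871 reads fell on the genes of the table. Levels are given as CPM, the reads of a gene scaled to a common library total. Notch1 was at 192 to 293 CPM in the controls and 3064 to 5358 CPM in iNICD, so every library carried the level of its label; transgene and endogenous reads are not told apart. The summed level of 8 atrial myocyte markers was 64217 to 72854 CPM in controls and 50154 to 58630 CPM in iNICD, without overlap, and 5 of the 8 were called lower. Myh6, the largest part of that sum, overlapped, at 33021 to 47016 CPM in controls and 35522 to 42177 CPM in iNICD. Tnnt2 and Bmp10 overlapped too, while Nppa, Myl7, Myl4, Sln and Tbx5 were lower in iNICD without overlap. The summed level of 5 macrophage markers was 324 to 380 CPM in controls and 374 to 543 CPM in iNICD, with 3 of 5 called higher. Among 5 fibroblast markers 1 was called higher, as was 1 among 5 smooth muscle and pericyte markers, 1 among 4 tested ventricular markers, while 1 was higher and 1 lower among 6 sinus node markers. None was called among 6 endothelial, 5 adipocyte, 5 epicardial, 5 red blood cell and 5 tested neuronal and glial markers. The skeletal muscle list summed to 791 to 1111 CPM in controls and 403 to 735 CPM in iNICD, without overlap, with 1 of 3 tested genes called lower. Ckm made up most of that sum, at 773 to 1080 CPM in controls and 393 to 691 CPM in iNICD. The ranges of Acta1, Tnnt3, Mylpf and Myh4 overlapped between the groups. Neutrophil and lymphocyte markers summed to at most 5.30 and 4.71 CPM, with 3 of 5 and 1 of 6 averaging under 0.2 CPM. Xist was at 464 to 649 CPM in 4 controls and 3 iNICD libraries, and at 7.07 to 13.5 CPM in control 4, control 6, iNICD 4, iNICD 5 and iNICD 6. Control 3, iNICD 3 and iNICD 5 carried 20234 to 30814 CPM of the RNA Gm42418, against 119 to 4790 CPM elsewhere. The part of any of these in the results below was not tested beyond the values given beside them, and in bulk tissue fewer cells of a type and less RNA per cell cannot be told apart.

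The promoter windows of the NR4A family are shown because 2 of its members were the ones that passed the test, with Fos and Dusp1 beside them as members that did not. Each run is the 250 bases before the RefSeq start site on the GRCm38.p6 build, written 5′ to 3′ on the gene's strand. Capitals mark the core of the cyclic AMP response element, TGACG, on either strand (CGTCA on the reverse). The windows lie at chr15:101266596-101266845 on the plus strand for Nr4a1, chr2:57124004-57124253 on the minus strand for Nr4a2, chr4:48045055-48045304 on the plus strand for Nr4a3, chr12:85473640-85473889 on the plus strand for Fos and chr17:26508473-26508722 on the minus strand for Dusp1. The windows of Nr4a1 and Dusp1 lie inside the span that GENCODE annotates for the gene, and that of Nr4a3 partly so.
Nr4a1: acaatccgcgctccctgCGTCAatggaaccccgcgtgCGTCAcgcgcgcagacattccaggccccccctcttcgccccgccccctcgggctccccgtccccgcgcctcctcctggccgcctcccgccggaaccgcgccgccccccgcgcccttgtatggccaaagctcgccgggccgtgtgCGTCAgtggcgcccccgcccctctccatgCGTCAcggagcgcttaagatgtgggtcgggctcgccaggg
Nr4a2: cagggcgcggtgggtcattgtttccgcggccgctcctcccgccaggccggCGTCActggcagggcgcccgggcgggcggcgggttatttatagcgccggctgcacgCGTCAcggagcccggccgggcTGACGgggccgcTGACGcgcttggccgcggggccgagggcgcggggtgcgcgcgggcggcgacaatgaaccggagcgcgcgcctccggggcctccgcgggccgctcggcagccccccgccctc
Nr4a3: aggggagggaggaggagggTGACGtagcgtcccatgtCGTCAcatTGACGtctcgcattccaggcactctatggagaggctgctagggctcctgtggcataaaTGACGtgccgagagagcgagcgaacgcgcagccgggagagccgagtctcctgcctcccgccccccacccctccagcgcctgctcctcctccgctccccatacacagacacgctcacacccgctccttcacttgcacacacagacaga
Fos: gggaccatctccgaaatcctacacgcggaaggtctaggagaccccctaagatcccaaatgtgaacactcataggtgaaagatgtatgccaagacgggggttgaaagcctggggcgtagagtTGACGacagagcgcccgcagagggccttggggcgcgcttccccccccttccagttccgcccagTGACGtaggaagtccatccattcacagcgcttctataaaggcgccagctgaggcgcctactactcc
Dusp1: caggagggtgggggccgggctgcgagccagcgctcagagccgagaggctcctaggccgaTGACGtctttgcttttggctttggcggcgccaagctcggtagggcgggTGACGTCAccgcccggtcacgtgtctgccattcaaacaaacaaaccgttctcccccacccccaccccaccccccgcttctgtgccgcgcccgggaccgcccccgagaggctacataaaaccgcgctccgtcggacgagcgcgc

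Nr4a1, Nr4a2 and Nr4a3 each held 4 matches to TGACG, a number reached by 0.137% of the 32851 promoter windows in the table (45 windows). In Nr4a1 the matches began at -233, -213, -69 and -40 from the start site, in Nr4a2 at -200, -144, -123 and -111, and in Nr4a3 at -231, -213, -205 and -147. Dusp1 held 3 matches, of which 2 overlap in 1 full element TGACGTCA at -143, a sequence present in 1.55% of all windows. Fos held 2 matches and Fosb, Junb and Atf3 held 1 each. At least 1 match was present in 8 of the 9 members found in the table and in 17.8% of all windows. No CArG box (CC, then 6 bases that are A or T, then GG, which is its own reverse complement), the SRF site, was found in the 9 windows. Only 1.47% of all windows hold one, so 9 windows of any genes would mostly hold none, and its absence here says little. Egr1 had no window to search. The well-studied SRF site of Fos lies farther upstream. The windows were richer in G and C, at 58.4% for Fos, 63.6% for Nr4a3 and 74.4% for Nr4a1, than the median window at 52.4%. A match describes these letters only.

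**Figure D1:**
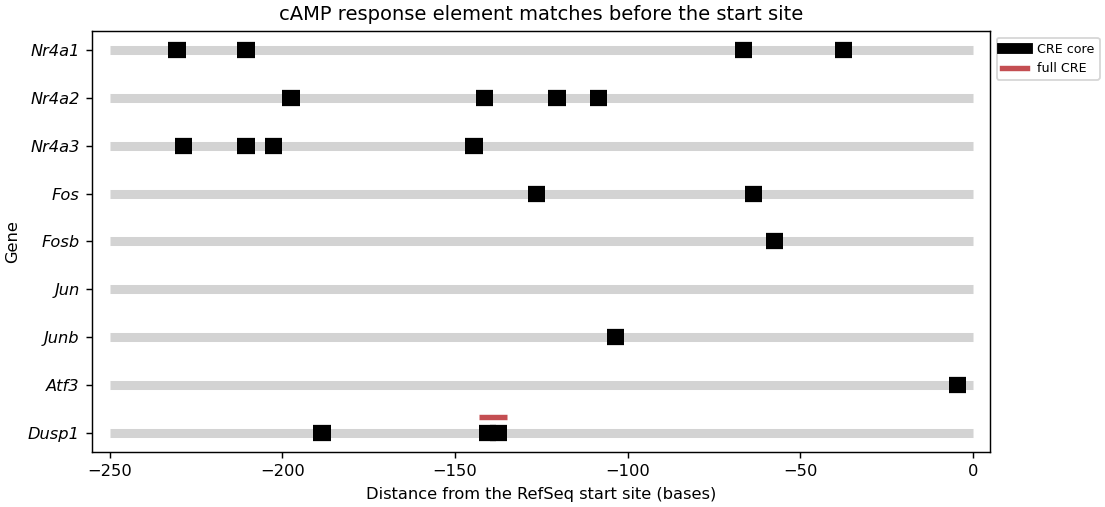
Positions of the cyclic AMP response element core (black) and of the full element (red) in the 250 bases before the start site of 9 immediate early genes, by distance from the start site in bases. The 3 NR4A genes hold 4 cores each, and the full element occurs once, in Dusp1.

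The comparison of iNICD with control asked how the right atrial transcriptome differed after 3 weeks of Notch activation. Nr4a1 and Nr4a3, which encode the orphan nuclear receptors NUR77 and NOR1, fell in iNICD to 0.454 and 0.329 of their mean control CPM. No member rose, and all 10 had a lower mean CPM in iNICD, from 0.267 of the control mean for Fosb to 0.980 for Dusp1. Of the 9 members high enough to test, 2 were called lower (limma, Benjamini-Hochberg adjusted p under 0.05 over the 14336 genes tested). Over all genes tested, 1.84% were called lower, 4.87% higher and 6.71% in either direction (698 higher and 264 lower, or 602 and 407 after quantile normalization). Of the 9, 4 (Nr4a1, Nr4a3, Egr1 and Nr4a2) were lower at an unadjusted limma p under 0.05, where 5.53% of all genes were. The log2 fold change was below 0 for 8 of the 9 members and for 38.7% of all genes, with a median of -0.49 for the members and 0.05 for all genes. After median-of-ratios or quantile scaling it was below 0 for all 9. The median of all genes was then also below 0, at -0.0097 and -0.015, so the 38.7% does not hold there. Most members tended to vary together between libraries, so these 9 are not independent observations.

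**Figure D2:**
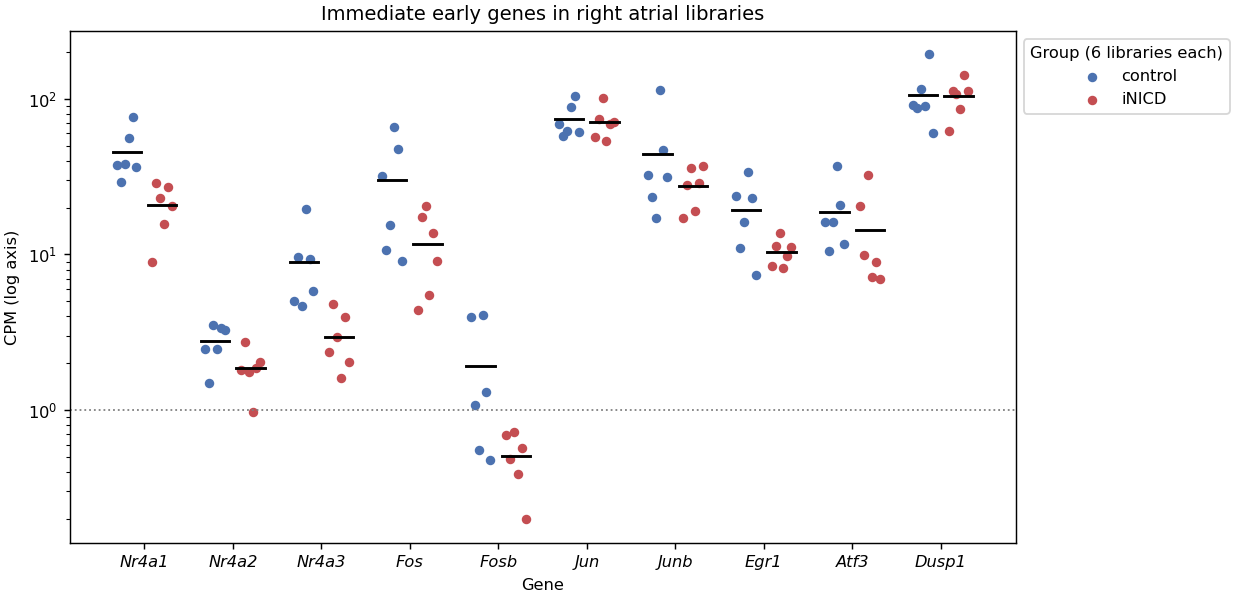
CPM of the 10 immediate early genes (log axis) in each of the 6 control (blue) and 6 iNICD (red) libraries, 1 point per library and a bar at the group mean. The dotted line marks 1 CPM, the level used to decide which genes were tested. The groups are apart for Nr4a1 only (after median-of-ratios scaling also for Nr4a3), while Jun covers much the same range in both.

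The NR4A family holds 3 orphan receptors that bind DNA without a known natural ligand and whose activity follows their own level of expression. Nr4a1 (ENSMUSG00000023034, chromosome 15, 101254269 to 101274795, GRCm38) was at 37.8, 29.05, 38.3, 56.1, 76.2 and 36.6 CPM in controls 1 to 6, and at 8.94, 28.9, 23.2, 15.7, 26.9 and 20.6 CPM in iNICD 1 to 6. All 6 controls were above all 6 iNICD libraries, but control 2 and iNICD 2 lay side by side. The means were 45.7 ± 17.4 and 20.7 ± 7.43 CPM (SD, n = 6 each), resting on 129 to 1114 reads per library. The log2 fold change was -1.14 (SE 0.29, limma adjusted p = 0.036), and the exact two-sided permutation test of log2 values gave p = 0.0022, the smallest that 924 relabellings allow. No overlap in either direction was found for 4.59% of the genes tested, and with controls above iNICD for 1.13%.

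The Nr4a1 call was close to the threshold. It was lost when control 1 (adjusted p = 0.057), control 3 (0.057), control 4 (0.083), control 5 (0.062), control 6 (0.0504), iNICD 3 (0.055), iNICD 4 (0.071) or iNICD 6 (0.061) was dropped, with log2 fold changes of -1.19 to -0.98 in those fits. Among libraries with high Xist the log2 fold change was -1.19 (4 controls, 3 iNICD, adjusted p = 0.26), and among those with low Xist -1.12 (2 controls, 3 iNICD, adjusted p = 0.27). Without control 3, iNICD 3 and iNICD 5 it was -1.35 (adjusted p = 0.075).

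Nr4a3 (ENSMUSG00000028341, chromosome 4, 48045153 to 48086447) was at 5.02, 9.57, 4.64, 19.6, 9.30 and 5.81 CPM in controls 1 to 6. In iNICD 1 to 6 it was at 2.36, 4.83, 2.95, 1.61, 3.94 and 2.05 CPM. Of the 6 controls, 5 were above every iNICD library, and control 3 was below iNICD 2; after median-of-ratios scaling all controls were above (lowest control 4.76, highest iNICD 4.45 CPM). Control 4 stood far above the other controls. The means were 8.99 ± 5.63 and 2.96 ± 1.22 CPM (SD, n = 6 each), on 25 to 308 reads per library, with a log2 fold change of -1.36 (SE 0.32, limma adjusted p = 0.021) and exact permutation p = 0.0043. Without control 4 the log2 fold change was -1.11 (adjusted p = 0.013). The call was lost without iNICD 1 (-1.32, adjusted p = 0.055). It was -0.96 among libraries with high Xist (adjusted p = 0.080) and -1.97 among those with low Xist (adjusted p = 0.34), and -1.63 without control 3, iNICD 3 and iNICD 5 (adjusted p = 0.045).

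Nr4a2 (chromosome 2, 57106830 to 57124003), which encodes NURR1 and is best known from dopamine neurons, was the least abundant NR4A gene. It ranged from 1.498 to 3.54 CPM in controls (median 2.87) and from 0.967 to 2.74 CPM in iNICD (median 1.83). In 3 controls it was above every iNICD library, and 1 iNICD library was below every control. Its log2 fold change of -0.47 (SE 0.21) did not pass the test (limma adjusted p = 0.23, exact permutation p = 0.054). With 15 to 56 reads per library, counting error adds to its spread.

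Fos and Fosb encode partners that need a Jun protein to bind DNA as AP-1. Fos (ENSMUSG00000021250, chromosome 12, 85473890 to 85477273) ranged from 9.01 to 66.1 CPM in controls (median 23.6) and from 4.37 to 20.4 CPM in iNICD (median 11.4). Controls 1, 4 and 5 were above every iNICD library, and controls 2, 3 and 6 lay within the iNICD range. Its log2 fold change of -1.15 was as large as that of Nr4a1, but with an SE of 0.56 it did not pass the test (limma adjusted p = 0.30, exact permutation p = 0.087). Fosb was the member too low to test, at 1 CPM or more in 4 controls and no iNICD library. It was at 3.96, 1.08, 0.550, 4.08, 1.30 and 0.474 CPM in controls 1 to 6 and at 0.198 to 0.718 CPM in iNICD, where the lowest library held 3 reads. Fosb was highest in controls 1 and 4, and 2 controls lay within the iNICD range. The difference of its mean log2 values was -0.9951 (exact permutation p = 0.035, not adjusted), and limma without a filter gave adjusted p = 0.19.

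Jun and Junb supply the other side of the AP-1 dimer, and JUNB is a weaker activator than JUN on many AP-1 sites. Jun (ENSMUSG00000052684, chromosome 4, 95049034 to 95052222) ranged from 58.1 to 104 CPM in controls (median 65.4) and from 53.8 to 101 CPM in iNICD (median 69.7). The groups covered the same range, with a log2 fold change of -0.06 (SE 0.17, limma adjusted p = 0.91), and its sign changed without control 4, control 5, iNICD 1 or iNICD 4 (0.0015 to 0.0492) and among libraries with high Xist (0.07). Junb (chromosome 8, 84974484 to 84978718) ranged from 17.2 to 115 CPM in controls (median 31.9) and from 17.1 to 37.3 CPM in iNICD (median 28.4). Control 4 alone accounted for the top of that range, and the next control was at 46.7 CPM. The log2 fold change of Junb was -0.44 (SE 0.40, limma adjusted p = 0.63), and -0.10 without control 4. Junb shares 173 exonic bases with Prdx2 and Jun 232 with Junos, both on the opposite strand, and the strand setting of the counting is not given in the sources used here.

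EGR1, a zinc finger factor, and ATF3, a bZIP factor that mostly represses, were the remaining transcription factors. Egr1 (ENSMUSG00000038418) ranged from 7.35 to 33.8 CPM in controls (median 19.6) and from 8.19 to 13.7 CPM in iNICD (median 10.4). In 4 controls Egr1 was above every iNICD library, while control 6 was below all of them. At a log2 fold change of -0.71 (SE 0.30) Egr1 was not past the threshold by limma (adjusted p = 0.22, exact permutation p = 0.067). It passed without control 6 (-0.94, adjusted p = 0.033) and with DESeq2 on recovered reads (-0.96, adjusted p = 0.021), but not with edgeR (-0.96, adjusted p = 0.084). Atf3 (chromosome 1, 191170296 to 191218039) ranged from 10.5 to 37.1 CPM in controls (median 16.1) and from 7.004 to 32.5 CPM in iNICD (median 9.43). In 4 iNICD libraries Atf3 was below every control, but iNICD 1 and iNICD 3 were at 20.4 and 32.5 CPM. The log2 fold change of Atf3 was -0.49 (SE 0.41, limma adjusted p = 0.59), and it was 0.27 among libraries with high Xist and -1.39 among those with low Xist. Both controls with low Xist were above all 3 such iNICD libraries, as they were for Nr4a1, Nr4a2 and Nr4a3. With so few libraries this says little, and no share over all genes was taken.

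Dusp1, which dephosphorylates p38, JNK and ERK kinases, was the one member with a positive log2 fold change. It ranged from 60.2 to 193 CPM in controls (median 90.7) and from 62.2 to 143 CPM in iNICD (median 110). Control 5 was the highest of all 12 libraries and control 6 the lowest. Its log2 fold change was 0.02 (SE 0.26, limma adjusted p = 0.98), and it was -0.34 among libraries with high Xist and 0.59 among those with low Xist. It changed sign to -0.04 with median-of-ratios scaling and -0.01 with quantile normalization. Dusp1 shares 11 exonic bases with Ergic1 on the opposite strand.

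Per kilobase of annotated exon, the order of mean levels in controls was Dusp1 (32.0 CPM per kb), Jun (23.1), Junb (19.2), Nr4a1 (13.01), Fos (12.8), Atf3 (8.70), Egr1 (4.27), Nr4a3 (1.502), Nr4a2 (0.682) and Fosb (0.306). Every neighbouring pair in that order overlapped in range between the 6 controls. Compared within each library, Atf3 was above Egr1 and Egr1 above Nr4a3 in all 6 controls, and the other pairs kept the order in 3 to 5. In iNICD the order was Dusp1 (31.4 CPM per kb), Jun (22.2), Junb (12.025), Atf3 (6.65), Nr4a1 (5.90), Fos (4.99), Egr1 (2.32), Nr4a3 (0.494), Nr4a2 (0.459) and Fosb (0.0815). There Jun stood above Junb, Egr1 above Nr4a3 and Nr4a2 above Fosb without overlap, and the other neighbours overlapped. Of those that overlapped, Dusp1 was above Jun within each of the 6 iNICD libraries. Exon lengths came from all annotated transcripts, so a gene that uses only some of its exons is set too low on this scale.

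Each tested member varied more between libraries of a group than the median gene did, by amounts that differed among members. The SD of log2 values among controls was 1.16 for Fos, 0.94 for Junb, 0.78 for Egr1 and 0.74 for Nr4a3, against a median of 0.22 over the genes tested, and 0.398% of genes had a larger SD than Fos. Among iNICD libraries it was 0.86 for Fos, 0.87 for Atf3 and 0.61 for Nr4a1, against a median of 0.19. Others were nearer to the median gene: Jun had an SD of 0.33 in controls and 0.32 in iNICD, with 24.0% and 18.9% of genes larger, and Nr4a2 0.38 and 0.37, with 17.5% and 12.9% larger. Egr1 had an SD of 0.27 in iNICD, with 26.3% of genes larger. The SD was larger in controls than in iNICD for 8 of the 10 members, the exceptions being Nr4a1 and Atf3, and the difference in spread was not tested. The median SD over all genes tested was larger in controls too (0.22 against 0.19), so this direction is not particular to the members. Fos covered a 7.33-fold range among controls and a 4.68-fold range among iNICD libraries, while Jun covered 1.79-fold and 1.87-fold.

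**Figure D3:**
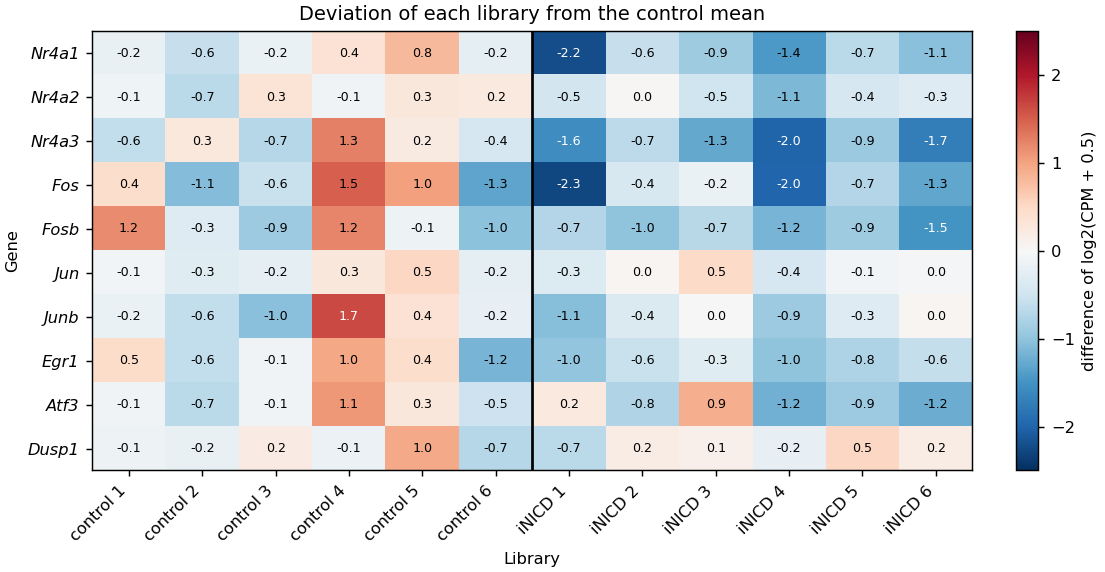
Difference of each library from the control mean, in log2(CPM + 0.5), for the 10 genes (rows) in the 12 libraries (columns), red above and blue below. Controls 4 and 5 are red in most rows, and iNICD 1 and iNICD 4 are the bluest columns for Nr4a1 and Fos.

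High and low values tended to fall in the same libraries. Control 4 held the highest control value for 6 of the 10 members, control 5 for 3 and control 3 for 1. The lowest control value was in control 2 or control 6 for 4 members each and in control 3 for the others. Among iNICD libraries, iNICD 3 was highest for 5 members and iNICD 2 for 3, while iNICD 1 and iNICD 4 were lowest for 4 each. Across the 6 controls, Pearson's r of log2 values with Fos had a median of 0.79 over the other 9 members and ran from 0.14 (Nr4a2) to 0.96 (Egr1). Across the 6 iNICD libraries the median was 0.78, from 0.18 (Fosb) to 0.89 (Nr4a1).

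Of these 18 relations, 7 had an exact permutation p under 0.05 and none had an adjusted p under 0.05. For Egr1 and Fos in controls r was 0.956 (exact permutation p = 0.0056, adjusted p = 0.050) and Spearman's rho 0.943 (exact permutation p = 0.017, adjusted p = 0.10). Without controls 4 and 6, the farthest from the median of Fos, r was 0.94. For Nr4a1 and Fos in iNICD r was 0.887 (exact permutation p = 0.0097, adjusted p = 0.058) and rho 0.829 (exact permutation p = 0.058, adjusted p = 0.13). Without iNICD 1 and iNICD 4 r was 0.54, so this relation rests in part on those libraries. With the Fos level as a covariate, an analysis added after the data were seen, the log2 fold change was -0.63 for Nr4a1 (SE 0.20, limma adjusted p = 0.12), -0.91 for Nr4a3 (SE 0.30, adjusted p = 0.15) and -0.12 for Egr1 (SE 0.17, adjusted p = 0.86).

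**Figure D4:**
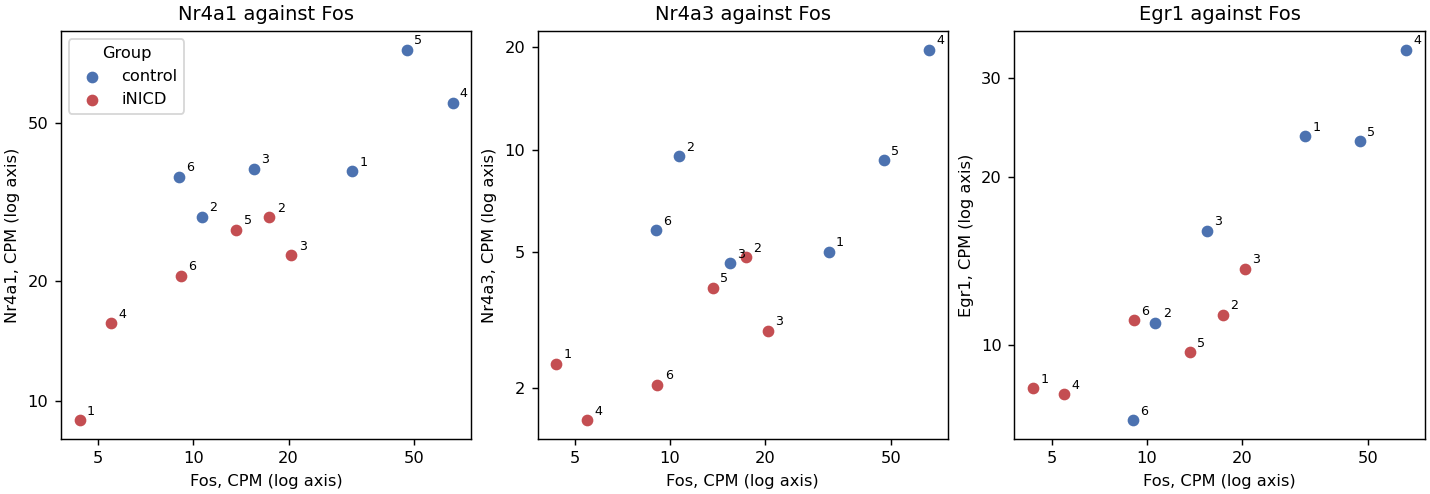
CPM of Nr4a1, Nr4a3 and Egr1 against CPM of Fos, both on log axes, in 6 control (blue) and 6 iNICD (red) libraries, with the replicate number beside each point. Control 6 and iNICD 6 have about the same Fos level (9.01 and 9.12 CPM). Nr4a1 was there at 36.6 and 20.6 CPM, Nr4a3 at 5.81 and 2.05 CPM and Egr1 at 7.35 and 11.1 CPM. The gaps varied between pairs with near Fos levels. Control 3 and iNICD 2 (Fos 15.49 and 17.4 CPM) had Nr4a1 at 38.3 and 28.9 CPM and Nr4a3 at 4.64 and 4.83 CPM. Control 2 and iNICD 5 (Fos 10.65 and 13.7 CPM) had Nr4a1 at 29.05 and 26.9 CPM and Nr4a3 at 9.57 and 3.94 CPM. In both of these pairs Egr1 was higher in the control library. No pair was tested.

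The genes that followed the members most closely from library to library were ranked by Pearson's r with the members' mean standardized deviation over the 12 libraries, with each group set to its own mean. Among the 11093 genes averaging 5 CPM or higher, the top 10 were Gem (0.91), a small GTPase that restrains calcium channels, Otud1 (0.91), Adamts1 (0.91), Pknox1 (0.90), the focal adhesion gene Zyx (0.90), the bZIP genes Cebpb (0.88) and Jdp2 (0.87), the mitochondrial carrier gene Slc25a25 (0.86), 1810055G02Rik (0.86) and Zfp36 (0.85), which encodes an mRNA decay protein. No p is given, since these are the highest of all genes ranked. None of the 10 was called between the groups, and their log2 fold changes ran from -0.72 (Gem, limma adjusted p = 0.13) and -0.68 (Adamts1, adjusted p = 0.061) to 0.00302 (Jdp2).

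Other immediate early genes were counted from lists by role. Among 16 tested transcription factors, such as Klf4, Egr2 and Ier2, none was called, where 6.71% of all genes were called in either direction. Of the 16, 12 had a log2 fold change below 0 with a list median of -0.23, where 38.7% of all genes were below 0. The smallest p was that of Mafk (0.71, SE 0.23, adjusted p = 0.10), with Klf2 (-0.70) and Klf4 (-0.64) next at an adjusted p of 0.25 and 0.26. Among 22 tested genes that encode no transcription factor, Btg1, an antiproliferative gene, rose and none fell, and 15 were below 0 with a median of -0.23. Btg1 ranged from 10.7 to 14.6 CPM in controls (median 13.3) and from 15.02 to 23.5 CPM in iNICD (median 17.5), without overlap, at a log2 fold change of 0.48 (SE 0.12, limma adjusted p = 0.021). The Btg1 call was lost without iNICD 1 or iNICD 3 (adjusted p of 0.055 to 0.057), among libraries with low Xist alone, without control 3, iNICD 3 and iNICD 5, and with the Fos covariate. Over all genes tested, 4.87% were called higher. Zfp36l1, an mRNA decay gene, was at -0.32 (adjusted p = 0.14) and was called lower with median-of-ratios (-0.37, adjusted p = 0.040) and quantile scaling (-0.37).

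**Figure D5:**
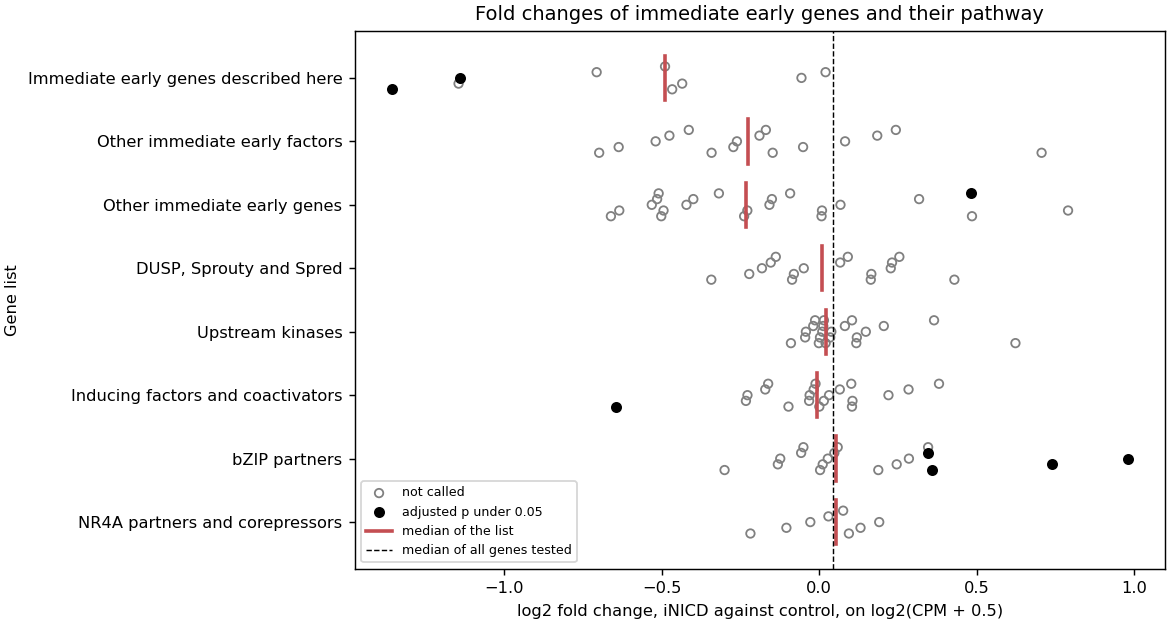
Log2 fold change of iNICD against control, on log2(CPM + 0.5), for the 9 tested members and the genes of 7 pathway lists, 1 circle per gene, filled where the adjusted p was under 0.05. Red bars mark list medians and the dashed line the median of all genes tested (0.05). The medians of the members (-0.49) and of the other immediate early lists (-0.23 each) lie to the left of it.

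On the input side, Srf fell and no other listed gene was called. Srf, the factor that binds CArG boxes of immediate early promoters, ranged from 201 to 365 CPM in controls (median 267) and from 152 to 186 CPM in iNICD (median 176). The groups did not overlap, as was so with controls above iNICD for 1.13% of the genes tested. The log2 fold change of Srf was -0.65 (SE 0.11, limma adjusted p = 0.0024), and the call was kept in each of the 12 fits without 1 library but lost among libraries with low Xist alone. It was the one called gene of 20 tested inducing factors and coactivators, whose median was -0.01. None of 21 upstream kinases was called, with a median of 0.02. None of 16 dual-specificity phosphatase, Sprouty and Spred genes was called, with a median of 0.01 and the smallest p for Dusp6 (0.43, adjusted p = 0.060). Over all genes tested 6.71% were called in either direction, so few calls in lists of this size are near that share.

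Among 18 tested bZIP partners of Fos, Jun and Atf3, 4 rose and none fell, with a median of 0.05, where 4.87% of all genes were called higher. Atf5, an activator in stress responses, ranged from 51.2 to 68.7 CPM in controls (median 58.2) and from 72.8 to 119 CPM in iNICD (median 100.09), at a log2 fold change of 0.74 (SE 0.11, limma adjusted p = 0.00056). Batf2, known as an interferon-induced factor, went from a median of 1.09 to 2.54 CPM (0.98, SE 0.18, adjusted p = 0.0034). Nfe2l1, which controls proteasome genes, went from 530 to 671 CPM (0.34, SE 0.06, adjusted p = 0.0021), and Ddit3, which encodes the stress factor CHOP, from 28.0 to 34.7 CPM (0.36, SE 0.09, adjusted p = 0.025). All 4 were without overlap between the groups, as were 4.59% of all genes tested in either direction, and all 4 calls were lost among libraries with low Xist alone. The Ddit3 call was also lost among libraries with high Xist alone, without control 3, iNICD 1 or iNICD 6 (adjusted p of 0.056 to 0.067), without control 3, iNICD 3 and iNICD 5 together, and with the Fos covariate. Batf2 was too low to be tested under a filter on a mean of 5 CPM. None of 8 partners and corepressors of NR4A and EGR proteins was called, with a median of 0.05 and the smallest p for Nab1 (0.19, adjusted p = 0.24).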

How the data were processed

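The authors deposited CPM for each library, in 41264 rows. Identifiers recur in 574 of them with equal values, which leaves 40690 genes. The submitters' processing notes list STAR 2.4.0b and featureCounts; no source used here gives the genome build, the annotation or the strand setting. Each CPM above 0 (100%) was a whole multiple of 1 read within 0.001 reads, so reads could be recovered for count tests. Libraries of a group differed beyond counting noise (chi-square per degree of freedom 9.22 to 88.9). Because the deposited CPM are no counts, limma 3.58.1 (R 4.3.3, trend, robust) was applied to log2(CPM + 0.5). It used 14336 genes that reached 1 CPM in 6 or more libraries, with Benjamini-Hochberg adjustment over these. Fold changes compare iNICD with control on that scale, which understates changes of low genes. The limma script was tested on simulated reads. Alternatives were edgeR 4.0.16 and DESeq2 1.42.0 on recovered reads, other pseudocounts, filters, scalings and covariates, a replicate block, Xist classes and left-out libraries. Members, gene lists and the naming rule (all members, called list genes or else the list gene with the smallest p, the 10 genes most like the members) were chosen with earlier results of these data known. Klf2, Klf4, Egr2, Ier2 and Zfp36l1 were named after their values were seen. One gene that the rule names is not reported here. Gene positions and exon lengths came from GENCODE M21 (GRCm38) by Ensembl identifier. Promoters came from RefSeq (GRCm38.p6), matched by symbol for 9 of 10 members.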

Additional observations from a re-analysis of the deposited data

Results flagged for a closer look

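Control 4 stood apart from the other 5 controls for 2 members by Dixon's criterion for 6 values, applied to CPM. Nr4a3 reached 19.6 CPM there, against a range of 4.64 to 9.57 CPM over the remaining controls. Junb reached 114.6 CPM, against a range of 17.2 to 46.7 CPM. The criterion was applied to 20 groups of 6 values (10 genes in each of the 2 groups). Chance flags about 1 in 20 where values are normally distributed and groups independent, and these genes varied together. It was not applied to log2(CPM + 0.5), the scale of the tests. There control 4 was at 4.33 for Nr4a3, with the next control at 3.33, and at 6.85 for Junb, with the next at 5.56. Without control 4 the log2 fold change was -1.11 for Nr4a3, still called, and -0.10 for Junb, not called.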

How the results depend on the processing

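The negative direction of Nr4a1, Nr4a2, Nr4a3, Fos and Egr1 held in every alternative run. Of the 2 calls, Nr4a3 held in 11 and Nr4a1 in 4 of 12 fits without 1 library. In those fits 1 to 2 members were called lower, and without control 6 these were Nr4a3 and Egr1. The number called lower was 1 without a filter and without the 3 libraries rich in Gm42418, and 0 in either Xist class alone (with as few as 2 controls), at an adjusted p of 0.01 and with the Fos covariate, which was added after seeing the data. It was 3 with DESeq2. The number called higher was 0 throughout, DESeq2 and edgeR included, and no member was higher at an unadjusted limma p under 0.05. Over all genes, 698 higher and 264 lower became 36 and 1 with low Xist alone, 378 and 145 without the 3 Gm42418 libraries, 328 and 156 with the Fos covariate and 314 and 115 at an adjusted p of 0.01. The lower count was 407 with quantile normalization, 552 with array weights and 587 with DESeq2. Leaving out 1 library gave 458 (without iNICD 1) to 782 higher and 186 to 432 (without control 4) lower. With the replicate block 794 genes were higher and 297 lower, and the same number of members, 2, was called lower (Nr4a1 adjusted p = 0.040, Nr4a3 adjusted p = 0.036). The correlation of same-numbered libraries' deviations was -0.00561 to 0.32 and 3 of 6 numbers matched best with themselves, so the block rests on a number only.

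Signs changed for Jun, Junb, Atf3 and Dusp1. Jun was at 0.0747 with high Xist alone, 0.27 with the Fos covariate and -0.16 to 0.0492 with 1 library left out. Junb was at 0.21 with the Fos covariate, and Atf3 at 0.27 with high Xist alone (-1.39 with low Xist alone). Dusp1 was at -0.0371 with median-of-ratios scaling, -0.0142 with quantile normalization, -0.0800 with array weights, -0.0751 with edgeR, -0.0754 with DESeq2, -0.34 with high Xist alone (0.59 with low Xist alone), 0.36 with the Fos covariate, -0.0875 without the 3 Gm42418 libraries and -0.12 to 0.21 with 1 library left out. Without the 2 libraries farthest from the median of Fos, r with Fos in iNICD turned to -0.33 for Junb and -0.22 for Dusp1. The cause was not tested. At 15 to 56 reads for Nr4a2 and 3 to 90 for Fosb, depth limits these 2 genes most.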
